A study of Arabidopsis thaliana with 12 samples.

Results

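PYK10 is the β-glucosidase that fills the ER bodies of Arabidopsis, and it is described here with the genes that build these bodies and with the leaf enzymes that act on glucosinolates. The set holds 10 genes of the 25169 listed in the deposited tables: PYK10, BGLU18, BGLU21, BGLU22, TGG1, TGG2, NAI1, NAI2, ESM1 and PEN2. PYK10 was chosen by its measured level, since its fold changes over wild type were among the lowest of all genes in every mutant leaf class, and the other 9 genes were added around it by function. Its values against wild type are therefore a description with no test, while the other genes are tested in all comparisons where their counts allow it. Rosette plants of wild type (Col-0) were set beside melinoe, a line with an ethyl methanesulfonate mutation in FMN/FHY (At4g21470), whose enzyme turns riboflavin into the cofactor FMN and also hydrolyses FMN. Mutant leaves were sorted by colour into 3 classes, which the labels call green, green-white and white. With wild type this makes 4 groups of 3 libraries, A to C. Mutant and wild type were stratified for 48 h at 4 °C and then grew alike. They were kept for 2 weeks on medium with 1% sucrose and then on soil. Growth was at 22 °C, under 16 h of light at 75 µmol m−2 s−1 in each day. The sources used here do not give the number of plants behind a library or the age and position of a leaf, and p-values therefore measure no more than the spread between libraries, which may be technical.

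ER bodies are spindle-shaped compartments that bud from the endoplasmic reticulum and store β-glucosidases away from their substrates. The bHLH factor NAI1 is needed to form them and NAI2 is a structural protein of them. PYK10, BGLU21 and BGLU22 are the enzymes of roots and seedlings, whereas BGLU18 is the main enzyme of leaf ER bodies and also releases abscisic acid from its glucose ester. When tissue is broken, PYK10 meets jacalin-related lectins and GDSL lipase-like proteins of the cytosol and vacuole and forms large complexes with them. A second system, the classical myrosinases TGG1 and TGG2, sits in guard cells and in myrosin cells along the phloem and hydrolyses glucosinolates. ESM1 shifts the products of that reaction from nitriles to isothiocyanates, and PEN2 is an atypical myrosinase that acts on indole glucosinolates when fungi try to enter a leaf.

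The 7 β-glucosidases of the set belong to 1 enzyme family but differ at 2 places. One sets TGG1 and TGG2 apart from the rest, and the other sets the 4 ER body enzymes apart from TGG1, TGG2 and PEN2. The first is the acid/base position of the active site. The 24 coding bases around it are shown 5′ to 3′ from the RefSeq gene models of TAIR10.1, with the acid/base codon in capitals.
PYK10: atcactttcaatGAGccatgggtt
BGLU18: atcacatttaacGAGccatgggtg
BGLU21: atcactttcaacGAGccatgggtc
BGLU22: atcactttcaacGAGccatgggtc
PEN2: tgcacaatgaatGAGccgtgggtc
TGG1: atcaccatcaacCAGctatacaca
TGG2: atcaccatcaacCAGcttttcaca
The codon was GAG, which encodes glutamate, in PYK10, BGLU18, BGLU21, BGLU22 and PEN2. It was CAG, which encodes glutamine, in TGG1 and TGG2, the classical myrosinases, which use ascorbate as the catalytic base in its place. The PYK10 stretch is exonic and lies at chr3:2842156-2842179 on the minus strand, and that of TGG2 at chr5:9073910-9073933 on the plus strand.

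The second place is the end of the coding sequence, where a signal of the KDEL type holds a protein in the ER. The last 24 coding bases, stop codon included, are shown with the last 4 sense codons in capitals.
PYK10: gcgctcaagAAGGATGAGCTTtaa
BGLU18: tccaagctgAGGGAAGAACTCtag
BGLU21: gcactcaagAGGGATGAGCTTtaa
BGLU22: gcgctcaagAAGGATGAGCTTtaa
TGG1: cggaagagtCTTGCAGATGCAtga
TGG2: ggggataggAAGAGCCTCACAtga
PEN2: ttcttcaaaGGAGCTAATAATtga
Codons of a KDEL-type signal were present in PYK10, BGLU18, BGLU21 and BGLU22 and absent from TGG1, TGG2 and PEN2. The PYK10 end lies at chr3:2840657-2840680, in the last of its 13 exons. Coding sequences were 93.3% identical between BGLU21 and BGLU22 and 84.0% between PYK10 and BGLU21, so reads of this trio could in part be shared. TGG1 and TGG2 were 82.7% identical, and the deposited counts of all 10 genes were whole numbers in every library.

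Library totals lay between 25795702 and 26760055 estimated counts. Levels are given as CPM, the counts per 1e+06 counts of a library after scaling with TMM factors, and log2 fold changes with their standard errors (SE) and adjusted p come from edgeR's quasi-likelihood test over 19424 genes, called at an adjusted p under 0.05. The spread between libraries of a group was very small, and 58.3% of all tested genes were called between green leaves and wild type, 72.9% between green-white leaves and wild type and 79.9% between white leaves and wild type. A call alone therefore says little, and sizes are given with each. FMN/FHY itself lay between 21.4 and 25.2 CPM in all 12 libraries, so that its RNA level does not tell mutant from wild type. Markers of leaf mesophyll were abundant throughout, with 5 genes that summed to at least 16766 CPM in each library. Of the 6 root markers, PIN2, COBL9 and PRP3 had 15, 4 and 2 counts over all libraries and EXPA7 was not listed. The comparisons with wild type share the wild-type libraries and are not independent of each other.

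PYK10 (AT3G09260, chr3:2840477-2843781, minus strand) was almost lost from mutant leaves. It stood at 55.2, 58.6 and 59.8 CPM in the wild-type libraries. The green libraries held 2.18, 1.68 and 2.42 CPM, the green-white libraries 2.16, 2.37 and 1.92 CPM, and the white libraries 0.522, 0.629 and 0.799 CPM. No mutant library came near wild type, green and green-white libraries overlapped, and all white libraries lay below all others. The mean was 27.7-fold below wild type in green leaves, 26.9-fold below in green-white and 89.0-fold below in white ones, log2 values of −4.79 ± 0.08, −4.75 ± 0.08 and −6.47 ± 0.10. Counted from the lowest fold change of the 19424 genes, PYK10 took place 8 in green leaves, place 4 in the green-white class and place 14 in the white class.

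Differences between mutant leaf classes were not the ground for choosing PYK10, but the choice used its levels in these same libraries. The p-values of PYK10 between classes are therefore not independent of its choice. White leaves held 3.22-fold less PYK10 RNA than green leaves (log2 −1.68 ± 0.21, edgeR adjusted p = 1.8e-08). They also held 3.31-fold less than green-white leaves (log2 −1.72 ± 0.20, edgeR adjusted p = 7.7e-09). Green-white and green leaves differed by 0.04 ± 0.16, which did not pass the test (edgeR adjusted p = 0.85). The white values rest on 15, 18 and 23 counts per library. The last 138 bases of PYK10 overlap AT3G09250 on the other strand, and the strand setting of the counting is not given in the sources used here. That gene stayed between 19.0 and 24.3 CPM in all 12 libraries.

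**Figure D1:**
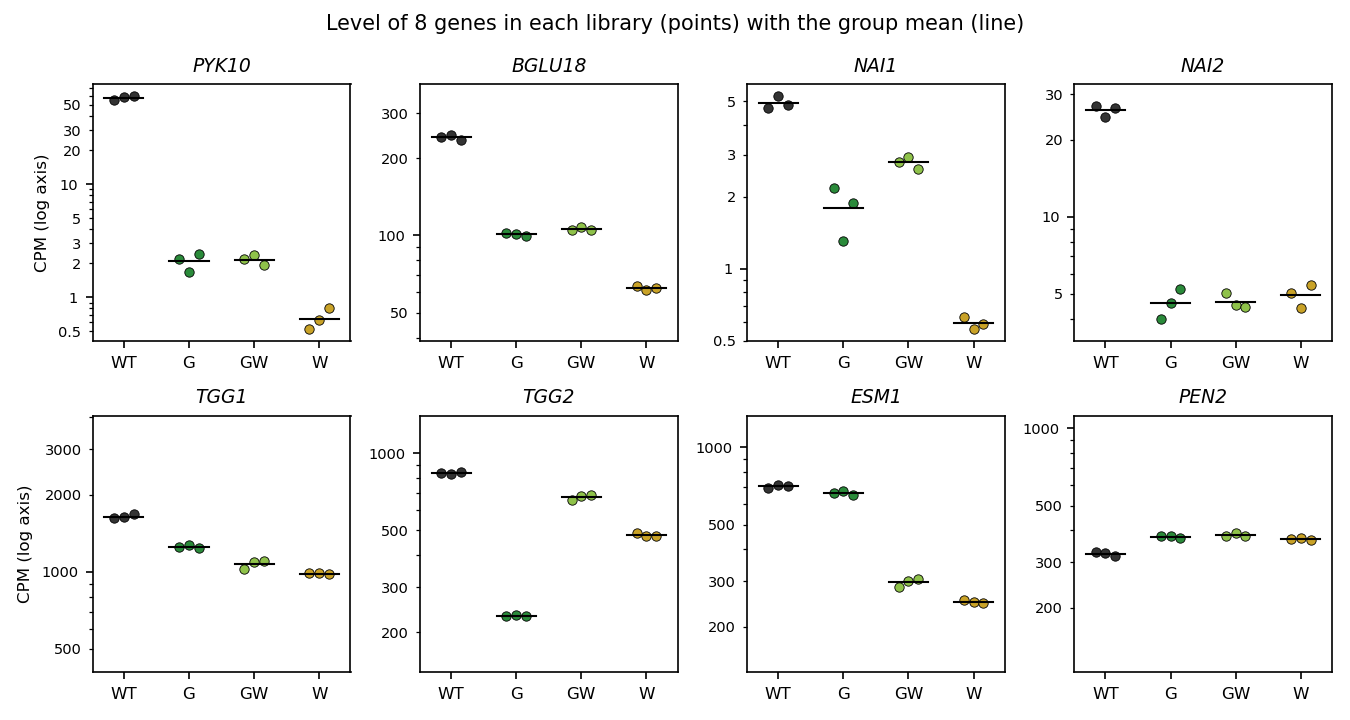
Levels of 8 genes in CPM on logarithmic axes, which differ in range between panels. Points are libraries of wild type (WT) and of the melinoe leaf classes green (G), green-white (GW) and white (W), and lines are means of 3 libraries. The means of PYK10 were 57.9 CPM in WT, 2.09 in G, 2.15 in GW and 0.650 in W, and TGG2 was lowest in green leaves.

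The other enzymes of ER bodies were BGLU18, which remained the most abundant of them in each group, and the nearly silent pair BGLU21 and BGLU22. BGLU18 (AT1G52400, chr1:19514989-19518411, plus strand) stood at 242, 246 and 236 CPM in wild type. It read 102, 102 and 99.3 CPM in green, 106, 108 and 105 CPM in green-white and 63.3, 61.3 and 62.2 CPM in white libraries. All mutant libraries lay below all wild-type libraries and the white libraries lay lowest. The fall was 2.39-fold in green (log2 −1.26 ± 0.03, edgeR adjusted p = 1.5e-25), 2.27-fold in green-white (−1.18 ± 0.03, edgeR adjusted p = 1.6e-25) and 3.88-fold in white leaves (−1.96 ± 0.03, edgeR adjusted p = 4.9e-31). White leaves were also below both other mutant classes, with log2 differences of −0.70 ± 0.03 to green and −0.77 ± 0.03 to green-white leaves (edgeR adjusted p = 3.3e-18 and 3.4e-19). By the authors' mean TPM, a unit that corrects for transcript length, PYK10 stood at 38.8 and BGLU18 at 133 TPM in wild type. In white leaves the authors' means were 0.593 TPM for PYK10 and 46.8 TPM for BGLU18.

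BGLU21 (AT1G66270) had 1 count in all 12 libraries and BGLU22 (AT1G66280) had 6, of which 5 were in wild type. Neither passed the filter on low counts, so 8 of the 10 genes were tested. A library with 0 counts allows up to 3 counts, or 0.104 to 0.124 CPM, and no fold change is given for this pair. The 2 genes lie next to each other on chromosome 1.

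The genes that make ER bodies were also lower in the mutant, but their levels ran differently across the leaf classes. NAI1 (AT2G22770), the bHLH factor, was at 4.69, 5.26 and 4.83 CPM in the wild-type libraries, and the green libraries held 2.18, 1.31 and 1.89 CPM. It reached 2.79, 2.94 and 2.62 CPM in green-white libraries and only 0.627, 0.559 and 0.591 CPM in white libraries. The 4 groups did not overlap and ran from wild type through green-white and green to white. The log2 change of NAI1 against wild type was −1.46 ± 0.14 in green leaves (edgeR adjusted p = 2.1e-10), −0.82 ± 0.13 in the green-white class (edgeR adjusted p = 7.2e-07) and −3.05 ± 0.17 in the white class (edgeR adjusted p = 1.8e-16). Green-white leaves exceeded green leaves by 0.63 ± 0.16 (edgeR adjusted p = 0.00085). White leaves were 3.02-fold below green (edgeR adjusted p = 1.5e-07) and 4.69-fold below green-white leaves (edgeR adjusted p = 1.4e-11). These levels rest on 16 to 127 counts per library.

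NAI2 (AT3G15950), the ER body protein, read 27.0, 24.6 and 26.6 CPM in wild type. The 9 mutant libraries all lay between 3.99 and 5.42 CPM, and their classes overlapped. NAI2 fell 5.65-fold in green, 5.58-fold in green-white and 5.25-fold in white libraries (log2 −2.50 ± 0.08, −2.48 ± 0.08 and −2.39 ± 0.08, edgeR adjusted p = 2.9e-22, 4.3e-23 and 4.4e-23). White leaves differed from green leaves by 0.11 ± 0.11 (edgeR adjusted p = 0.39) and from green-white leaves by 0.09 ± 0.11 (edgeR adjusted p = 0.49). PYK10 and NAI1 were thus lower in white than in the other mutant leaves, and no such difference was detected for NAI2.

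**Figure D2:**
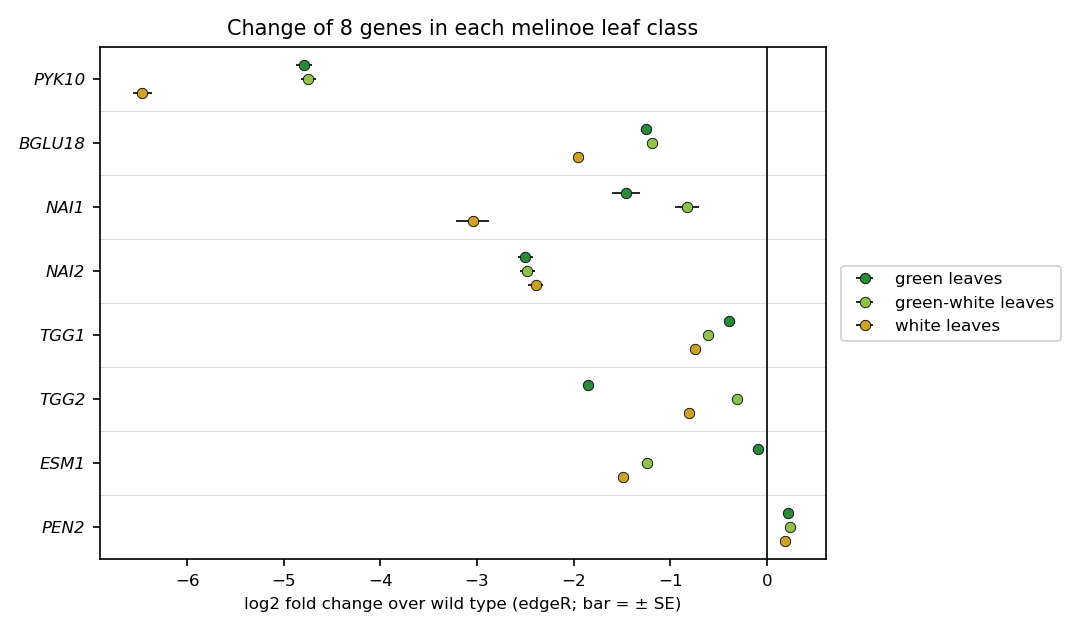
Log2 fold change over wild type (x axis) of 8 genes (y axis) in the 3 melinoe leaf classes, from edgeR, with bars for ± SE. PYK10 lies between −4.75 and −6.47, NAI2 between −2.39 and −2.50, and PEN2 is the only gene above 0.

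Because NAI1 is a bHLH factor, the bases around the gene starts were searched on both strands. The motifs were the G-box CACGTG and the wider E-box CANNTG, of which CACGTG is one form. The window ran from 250 bases before to 50 after the annotated start of each gene. CACGTG was found for 2 of the 10 genes, NAI2 and BGLU18. In BGLU18 it begins 40 bases after the start, inside the gene. The motif was found for 0 of the 13 other ER body and PYK10 complex genes listed below and in 7.68% of 27443 promoters of protein-coding genes. CANNTG was found for 6 of 10, 8 of 13 and 61.7%. The 250 bases before the start of NAI2 (chr3:5402654-5402903, minus strand, TAIR10.1, RefSeq) and of PYK10 (chr3:2843782-2844031, minus strand) are shown because both genes were far lower in all mutant classes. Capitals mark the CACGTG of NAI2, which begins 86 bases before the start.
NAI2: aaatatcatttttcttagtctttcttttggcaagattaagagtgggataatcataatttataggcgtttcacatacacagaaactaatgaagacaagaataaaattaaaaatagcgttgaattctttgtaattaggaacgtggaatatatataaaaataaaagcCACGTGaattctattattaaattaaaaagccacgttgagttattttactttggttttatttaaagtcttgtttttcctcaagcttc
PYK10: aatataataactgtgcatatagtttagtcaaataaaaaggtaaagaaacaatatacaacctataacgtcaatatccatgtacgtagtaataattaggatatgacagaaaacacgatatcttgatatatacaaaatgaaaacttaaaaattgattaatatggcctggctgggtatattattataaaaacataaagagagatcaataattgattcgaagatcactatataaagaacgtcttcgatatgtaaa
The PYK10 window holds neither motif. A match or its absence describes these letters and says nothing of binding.

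Most partners of PYK10 were lower in the mutant as well. In a list of 13 genes for ER body proteins and members of the PYK10 complex, 12 were tested. In green leaves 8 were called lower and 3 higher, where 29.6% of all tested genes were called lower and 28.7% higher. Green-white leaves gave the same counts, 8 lower and 3 higher, against 38.8% of all genes lower and 34.1% higher. White leaves had 10 lower and 0 higher, against 40.0% of all genes lower and 39.9% higher. The median of the list was −1.43, −1.40 and −2.69 in log2, where the median of all tested genes lay between −0.04 and 0.02 in every comparison. The list held 12 of 12 genes lower in white than in green leaves and 12 of 12 lower in white than in green-white leaves, where 36.3% and 30.8% of all genes were called lower.

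Several jacalin-related lectins of this list fell steeply. PBP1 (AT3G16420), the PYK10-binding protein, went from 114, 122 and 119 CPM in wild type to 30.8, 28.6 and 27.5 CPM in green, 13.9, 14.3 and 15.2 CPM in green-white and 6.03, 7.23 and 6.60 CPM in white libraries. Its groups did not overlap and stepped down from wild type to white, with log2 values of −2.03 ± 0.05, −3.03 ± 0.05 and −4.16 ± 0.06 against wild type (edgeR adjusted p = 1.0e-26, 1.4e-30 and 4.0e-33). Its neighbour JAL31 had 16.4 counts in all and was not tested. JAL23 had means of 41.8, 6.21, 12.1 and 1.84 CPM in wild type, green, green-white and white leaves, and its green-white level was above the green level by 0.96 ± 0.08 in log2 (edgeR adjusted p = 3.3e-12). NAI1 had this same order of groups.

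JAL33 and JAL22 started low and nearly vanished. JAL33 had 361 counts over the wild-type libraries and 7 over the white libraries, a ratio of 61.1 with a 95% counting interval of 29.4 to 153. JAL22 had 282 counts in wild type and 3 in white leaves, a ratio of 111 with an interval of 37.7 to 543. Both were called lower in green leaves too, with log2 changes of −3.73 ± 0.22 for JAL33 and −4.03 ± 0.28 for JAL22 (edgeR adjusted p = 7.3e-16 and 5.8e-14). JAL34 and JAL35, whose annotated ends overlap on opposite strands, changed by −2.72 ± 0.05 and −2.66 ± 0.05 in white leaves (edgeR adjusted p = 3.6e-29 and 1.7e-30).

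The remaining genes of the list were more varied. GLL23, a GDSL lipase-like protein of the complex, changed by −1.39 ± 0.10 in green and −3.64 ± 0.14 in white leaves on the log2 scale (edgeR adjusted p = 2.7e-13 and 2.5e-21). Its relative GLL22 rose by 1.92 ± 0.34 in green leaves (edgeR adjusted p = 1.5e-05) but from a mean of 0.276 CPM. TSA1, a close relative of NAI2, fell in the 3 leaf classes, with values of −0.95 ± 0.05, −0.80 ± 0.04 and −1.41 ± 0.05 (edgeR adjusted p = 8.2e-18, 1.2e-16 and 1.2e-22). MEB1 and MVP1, a membrane protein of ER bodies and a GDSL-type protein needed for ER organisation, were each slightly higher in green leaves, by 0.26 ± 0.07 and 0.22 ± 0.05 (edgeR adjusted p = 0.0015 and 0.00014). MEB2, the other membrane protein, passed the test against wild type in white leaves (−0.98 ± 0.20, edgeR adjusted p = 6.9e-05) and in no other class, at means of 1.06 to 2.09 CPM.

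**Figure D3:**
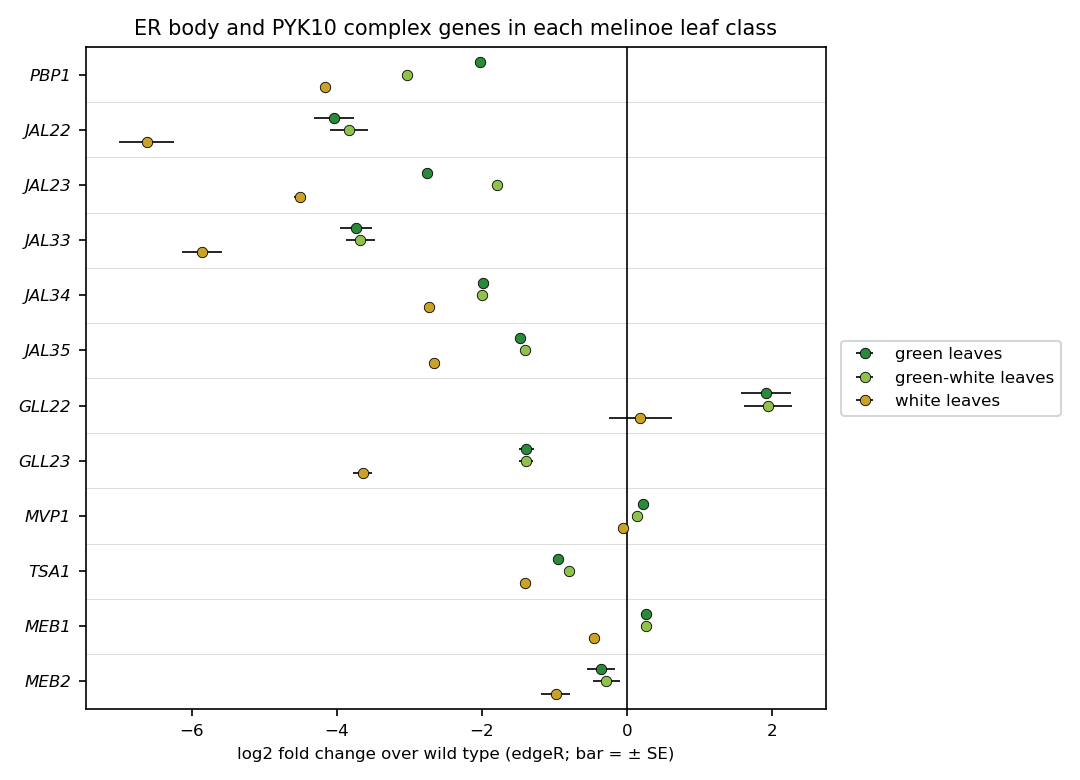
Log2 fold change over wild type (x axis, edgeR, bars ± SE) of 12 tested ER body and PYK10 complex genes in the 3 melinoe leaf classes. White leaves lie to the left of green and green-white leaves for each gene, and GLL22 is the one gene well above 0. The white value of JAL22 rests on 3 counts.

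ER bodies of the shoot are formed above all in the epidermis, whose markers moved as well. Of 5 epidermal markers 4 were lower and 1, PDF1, higher than wild type in each leaf class, where all genes were lower in 29.6%, 38.8% and 40.0% and higher in 28.7%, 34.1% and 39.9% of cases. They summed to 1218 to 1246 CPM in wild-type libraries, 827 to 832 in green, 774 to 786 in green-white and 768 to 777 in white libraries. The 6 root markers summed to 27.0 to 27.7, 22.3 to 23.9, 20.5 to 20.9 and 26.6 to 27.0 CPM in the same order, nearly all of it from SHR and SCR, which leaves also express. Their part in the PYK10 values was not tested. In bulk leaf RNA fewer cells of a type and less RNA per cell cannot be told apart.

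TGG2 was the gene of the set that set green leaves apart. TGG2 (AT5G25980, chr5:9072708-9075777, plus strand) stood at 839, 831 and 844 CPM in wild type and at 232, 234 and 231 CPM in green libraries. The green-white libraries read 655, 683 and 687 CPM and the white libraries 488, 477 and 475 CPM. The groups did not overlap, and green leaves were lowest rather than white. Against wild type TGG2 fell 3.61-fold in green (log2 −1.85 ± 0.03, edgeR adjusted p = 4.4e-31), 1.24-fold in green-white (−0.31 ± 0.03, edgeR adjusted p = 4.0e-12) and 1.75-fold in white leaves (−0.80 ± 0.03, edgeR adjusted p = 7.3e-23). Green-white leaves were 2.91-fold and white leaves 2.06-fold above green leaves (edgeR adjusted p = 6.8e-29 and 3.0e-25). White leaves were 1.41-fold below green-white leaves (edgeR adjusted p = 1.1e-16).

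TGG1 (AT5G26000, chr5:9079452-9082384, minus strand), its neighbour and the most abundant gene of the set, moved less. It read 1621, 1630 and 1674 CPM in wild type, 1251, 1269 and 1236 in green, 1029, 1093 and 1103 in green-white and 986, 985 and 980 CPM in white libraries. The groups stepped down without overlap, with log2 values of −0.39 ± 0.03, −0.61 ± 0.03 and −0.74 ± 0.03 against wild type (edgeR adjusted p = 6.1e-14, 3.1e-19 and 1.3e-21). Within a library the ratio of TGG1 to TGG2 counts is free of the scaling between libraries, although it is not corrected for length. It was 1.93, 1.96 and 1.98 in wild type and 5.38, 5.43 and 5.35 in green libraries. The pale classes gave 1.57, 1.60 and 1.61 in green-white and 2.02, 2.07 and 2.07 in white libraries. Green libraries stood far above all others in this ratio. The summed level of both genes was 1484 ± 18.1 CPM in green and 1464 ± 9.73 CPM in white leaves (SD, n = 3), groups that overlapped, against 2479 ± 33.4 CPM in wild type.

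**Figure D4:**
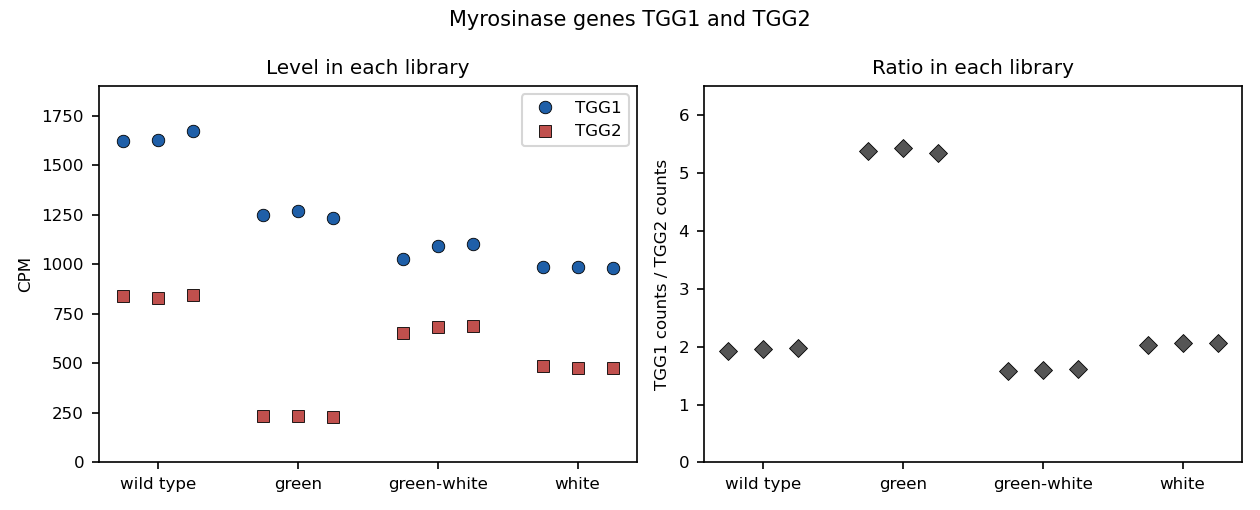
Left, CPM (y axis from 0) of TGG1 (circles) and TGG2 (squares) in each of 12 libraries, grouped along the x axis. Right, the ratio of TGG1 to TGG2 counts (y axis from 0) in the same libraries, which is 5.35 to 5.43 in green leaves and 1.57 to 2.07 elsewhere.

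Guard cells, and the phloem along which myrosin cells lie, were followed through their markers. Myrosin cells had no marker list of their own. Of 6 guard-cell markers 2 were higher and 2 lower in green leaves, 0 higher and 5 lower in green-white leaves and 1 higher and 4 lower in white leaves. Their sum was 57.3 to 57.7 CPM in wild-type, 51.1 to 52.8 in green, 31.6 to 33.4 in green-white and 34.3 to 35.9 CPM in white libraries. All 3 phloem markers were lower in each class, where 29.6%, 38.8% and 40.0% of all genes were lower and 28.7%, 34.1% and 39.9% higher, and their sum ran from 303 to 315 CPM in wild type through 248 to 253 and 226 to 231 to 144 to 148 CPM in white leaves. No marker of either list was at 0, and their part in the TGG values was not tested. FAMA, the factor that specifies guard cells and myrosin cells, was higher in green leaves by 0.41 ± 0.05 (edgeR adjusted p = 1.8e-08). It was also higher in white leaves, by 0.36 ± 0.05 (edgeR adjusted p = 9.1e-08), and was not called in green-white leaves (−0.06 ± 0.05, edgeR adjusted p = 0.33).

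Of the other genes of glucosinolate breakdown, 9 of 14 were tested, and members of the same protein class could go opposite ways. In green leaves 2 were higher and 6 lower, in green-white 3 higher and 4 lower, and in white leaves 4 higher and 4 lower, with list medians of −0.46, −0.18 and −0.02. Over all tested genes 28.7% were called higher and 29.6% lower in green leaves, 34.1% and 38.8% in green-white and 39.9% and 40.0% in white leaves, so the white counts lie near the share of all genes. NIT2, a nitrilase, rose from 23.3 to 24.9 CPM in wild-type libraries to 122 to 123 in green, 435 to 460 in green-white and 1441 to 1497 CPM in white libraries. Its log2 changes of 2.35 ± 0.04, 4.23 ± 0.04 and 5.93 ± 0.04 had edgeR adjusted p of 8.5e-30, 4.9e-37 and 2.6e-41, and its close copy NIT1 was lower by 0.71 ± 0.03 in green leaves (edgeR adjusted p = 5.5e-21). In no library was the deposited count of NIT1 or NIT2 a whole number, so reads were divided between genes by estimate. This limits the values of both genes. NSP5, a nitrile-specifier protein, rose by 1.21 ± 0.04 in green-white and 2.23 ± 0.04 in white leaves (edgeR adjusted p = 6.5e-22 and 2.9e-29). RNA of NSP1 and ESP, which belong to protein types that can also turn products toward nitriles, fell in white leaves. The values were −1.91 ± 0.04 and −1.12 ± 0.04 (edgeR adjusted p = 1.3e-27 and 1.9e-22), and protein activity was not measured. The root myrosinases TGG4 and TGG5 were not listed.

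ESM1 (AT3G14210, chr3:4729399-4731847, plus strand) divided the pale classes from green leaves. Wild-type libraries held 691, 712 and 708 CPM and green libraries 661, 674 and 650 CPM, while green-white libraries held 286, 300 and 306 CPM and white libraries 254, 250 and 247 CPM. The first pair of groups lay close together and far above the second. ESM1 fell 2.37-fold in green-white (log2 −1.24 ± 0.03, edgeR adjusted p = 1.3e-26) and 2.81-fold in white leaves (−1.49 ± 0.03, edgeR adjusted p = 6.0e-29). In green leaves the difference was only −0.09 ± 0.03 (edgeR adjusted p = 0.0081), and it no longer passed the test when any 1 wild-type or green library was left out (adjusted p = 0.057 to 0.23). Green-white leaves were 2.23-fold and white leaves 2.64-fold below green leaves (edgeR adjusted p = 5.1e-25 and 4.8e-28). The sum of the 5 mesophyll markers was also lower in both pale classes. It was 42481 to 43402 CPM in wild type, 41951 to 45208 in green, 23525 to 24035 in green-white and 16766 to 16943 CPM in white libraries. Single markers differed in green leaves, where 1 was called higher, 2 lower and 2 not called, against 28.7% of all genes higher and 29.6% lower. RBCS1A had means of 12961 CPM in wild type and 15870 in green leaves, and LHCB5 had 8165 and 6867 CPM. The part of these markers in the ESM1 values was not tested.

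PEN2 (AT2G44490, chr2:18364652-18367835, plus strand) was the one gene of the set that was higher in the mutant. It read 329, 327 and 319 CPM in wild type, 380, 380 and 375 in green, 381, 391 and 381 in green-white and 369, 374 and 366 CPM in white libraries. All mutant libraries were above all wild-type libraries, by 1.16-, 1.18- and 1.14-fold (log2 0.22 ± 0.03, 0.24 ± 0.03 and 0.19 ± 0.03, edgeR adjusted p = 2.8e-08, 2.0e-09 and 2.6e-07). Between mutant classes the differences were 0.02 ± 0.03, −0.03 ± 0.03 and −0.06 ± 0.03 and did not pass the test (edgeR adjusted p = 0.49, 0.26 and 0.067). The order of these values is green-white over green, white over green and white over green-white. The last was of similar size with RLE scaling and with DESeq2 (−0.07 in both) and passed there (adjusted p = 0.029 and 0.020).

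Genes listed with PEN2, for indole glucosinolates and for defence against fungal entry, were mixed. Of 13 tested, 8 were higher and 3 lower in green, 6 higher and 5 lower in green-white and 5 higher and 7 lower in white leaves. All tested genes were called higher in 28.7%, 34.1% and 39.9% and lower in 29.6%, 38.8% and 40.0% of cases in these classes, and the counts of the pale classes lie near those shares. Their medians were 0.17, 0.04 and −0.36. The transporter PEN3 rose by 0.73 ± 0.03, 0.95 ± 0.03 and 0.82 ± 0.03 and the syntaxin PEN1 by 0.62 ± 0.03, 0.95 ± 0.03 and 0.45 ± 0.03 in green, green-white and white leaves (edgeR adjusted p from 1.1e-22 to 1.9e-13). MYB34, an activator of indole glucosinolate synthesis, fell by 2.35 ± 0.09 in white leaves (edgeR adjusted p = 4.1e-21). CYP81F4, which modifies indole glucosinolates, had 166 counts over the wild-type libraries and 6 over the green libraries, a ratio of 27.9 with a 95% counting interval of 12.5 to 77.0.

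Counted over the set, 7 of the 9 genes other than PYK10 were tested against wild type. All 7 were called in each leaf class, 6 lower and 1 higher, where 58.3%, 72.9% and 79.9% of all genes were called. Their median log2 changes were −1.26, −0.82 and −1.49. Between mutant classes all 10 genes count, of which 8 were tested, with PYK10, whose choice used these libraries, among them. Green-white against green leaves gave 4 of 8 called, 2 higher and 2 lower, where 59.5% of all genes were called, 29.6% higher and 29.9% lower. White against green leaves gave 6 of 8, 1 higher and 5 lower, where 72.6% of all genes were called, 36.3% in each direction. White against green-white leaves gave 6 of 8, 0 higher and 6 lower, where 64.3% of all genes were called, 33.5% higher and 30.8% lower.

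The authors' mean TPM put the pale leaves on another scale than the counts. Over tested genes with values above 0, the median log2 ratio of these means was 0.32 for green-white and 0.44 for white leaves against wild type, 0.33 and 0.41 for these classes against green leaves, and 0.02 for green leaves against wild type. On the TMM scale the same medians lay between −0.04 and 0.02. Relative to green leaves, 81.3% of genes had a higher mean TPM in green-white and 76.4% in white leaves. By these means TGG1 was above green leaves by 0.11 in green-white and 0.07 in white leaves, where the counts gave −0.22 ± 0.03 and −0.35 ± 0.03. TGG2 in green-white leaves was 0.04 above wild type by mean TPM, where the counts gave −0.31 ± 0.03. PEN2, whose differences between mutant classes were not called in the main edgeR fit, was above green leaves by 0.38 and above green-white leaves by 0.03 in white leaves by mean TPM, where the counts gave −0.03 ± 0.03 and −0.06 ± 0.03. All 5 ratios lie below the median of all genes on the TPM scale. PYK10, NAI1, NAI2, BGLU18 and ESM1 were below wild type in every leaf class on both scales, and TGG2 was lowest in green leaves on both.

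**Figure D5:**
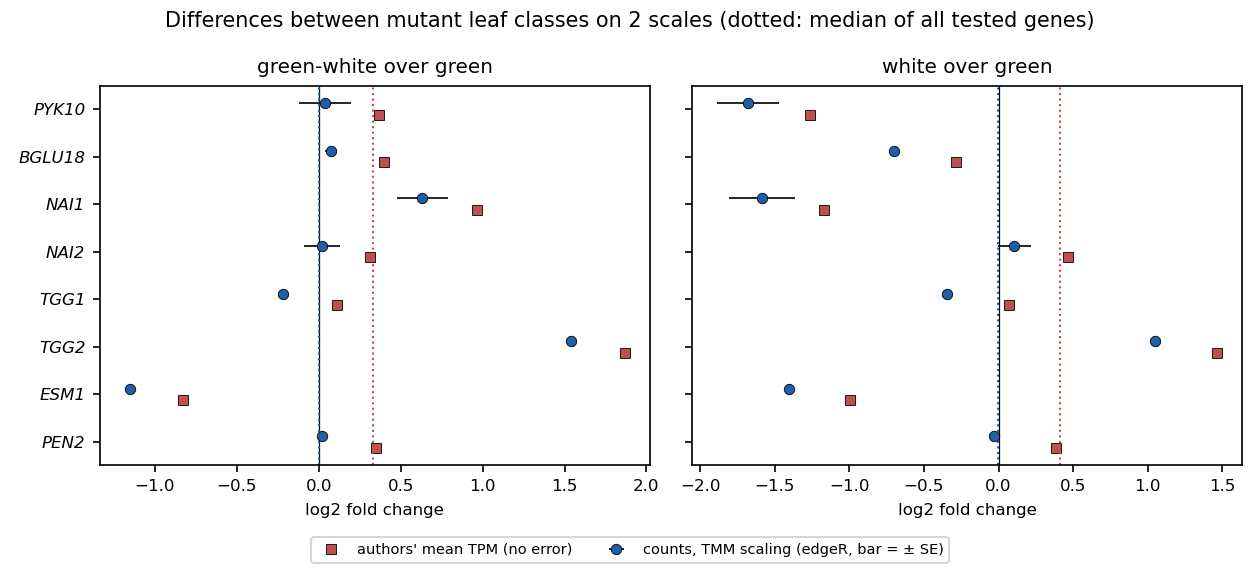
Log2 fold change (x axis) of 8 genes (y axis) in green-white over green (left) and white over green leaves (right), from counts with TMM scaling (circles, bars ± SE) and as the ratio of the authors' mean TPM (squares, no error). Dotted lines mark the median of all tested genes on each scale, which is at 0.33 and 0.41 for TPM. TGG1 changes side of 0 between the scales in both panels, while TGG2, ESM1 and NAI1 stay on theirs. PEN2 changes side in white over green leaves, where its difference was not called in the main edgeR fit.

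Per length, by the authors' mean TPM, TGG1 led the set in every group, with 1044 TPM in wild type and 810, 873 and 851 TPM for green, green-white and white leaves. TGG2 and ESM1 followed close together in wild type at 509 and 495 TPM. In green leaves ESM1 came next at 475 TPM, and TGG2, at 144 TPM, stood behind PEN2, at 203 TPM. In the pale classes ESM1 and PEN2 were close, at 268 and 259 TPM in green-white and 238 and 265 TPM in white leaves. At the bottom of the tested genes PYK10 and NAI1 lay side by side in green (1.43 and 1.46 TPM) and white leaves (0.593 and 0.650 TPM), whereas in wild type PYK10 stood far above NAI1, at 38.8 against 3.95 TPM. These are group means deposited without an error.

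The genes whose pattern over the 12 libraries was most like that of PYK10 were found by Pearson's r of log2(CPM + 0.5) among 14805 genes with a mean of at least 5 CPM in their highest group. They were ULT1 (r = 0.998), AT2G34510 (0.998), HMA2 (0.997), AT5G14450 (0.995) and ENP (0.995). Within the set BGLU18 came closest (r = 0.974), followed by NAI2 (0.961), TGG1 (0.942), ESM1 (0.700) and TGG2 (0.562), with PEN2 at −0.898. NAI1 was not compared, since the mean of its highest group was 4.93 CPM. Of the ER body and PYK10 complex list, JAL34 came closest, at place 12 (r = 0.993). The others compared took places 163 (TSA1), 444 (PBP1), 456 (JAL35), 794 (JAL23), 1233 (GLL23), 6314 (MEB1) and 7973 (MVP1, r = −0.208). The gene most like TGG2 was VSP1 (r = 0.995), a vegetative storage protein induced by jasmonate, with means of 141, 13.5, 103 and 44.4 CPM in wild type, green, green-white and white leaves. For ESM1 the 3 nearest genes were CRD1, CH1 and CHLM (r = 0.997 each). These correlations are descriptions over libraries that share their scaling and fall into 4 groups, and wild type against mutant makes up most of the range of PYK10.

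Among bHLH and jasmonate genes, 8 of 10 were tested, with 2 higher and 4 lower in green, 3 higher and 5 lower in green-white and 2 higher and 5 lower in white leaves, at medians of −0.17, −0.34 and −0.91. The shares called lower among all genes were 29.6%, 38.8% and 40.0%, and those called higher 28.7%, 34.1% and 39.9%. VSP1 fell in all classes, with log2 values of −3.38 ± 0.05 for green, −0.45 ± 0.03 for green-white and −1.66 ± 0.04 for white libraries (edgeR adjusted p = 7.0e-32, 4.0e-13 and 3.6e-27). VSP2 gave the same order of groups, and MYC4, a bHLH activator of glucosinolate genes, changed by −1.13 ± 0.06, −1.65 ± 0.06 and −2.15 ± 0.07 (edgeR adjusted p = 1.0e-16, 6.2e-21 and 1.8e-23). Its relative MYC2 rose slightly, by 0.18 ± 0.03 to 0.23 ± 0.03 in green and white leaves. BHLH18 and BHLH25, relatives of NAI1, had 1 count each, while BHLH19 rose by 1.94 ± 0.22 in green-white leaves (edgeR adjusted p = 2.3e-09).

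Of 12 relatives among the β-glucosidases 6 were tested, with 2 higher and 1 lower in green, 4 higher and 1 lower in green-white and 2 higher and 3 lower in white leaves (medians 0.04, 0.56 and −0.07). BGLU30, a dark-induced enzyme, was above wild type in every leaf class, where PYK10 was below it. It was at 0.576 to 1.07 CPM in wild type, 11.3 to 11.4 in green, 52.6 to 56.0 in green-white and 226 to 232 CPM in white libraries. PYK10 showed no detected difference between green and green-white leaves, where BGLU30 rose 4.77-fold (edgeR adjusted p = 8.6e-26). The log2 change of BGLU30 in white leaves was 8.10 ± 0.07 against wild type (edgeR adjusted p = 7.6e-38). BGLU33 fell by 1.80 ± 0.06 in white leaves (edgeR adjusted p = 5.5e-23). Genes of coumarin and scopolin, substrates of the root enzymes, had 4 of 6 tested, with 2, 2 and 0 higher and 0, 1 and 2 lower in green, green-white and white leaves (medians 0.20, 0.40 and −0.28). Those of abscisic acid turnover, on which BGLU18 acts, had 7 tested, with 3, 2 and 2 higher and 1, 3 and 4 lower (medians −0.06, −0.18 and −0.11). These 3 short lists stand against 28.7%, 34.1% and 39.9% of all genes called higher and 29.6%, 38.8% and 40.0% called lower. AAO3, the aldehyde oxidase of abscisic acid synthesis, rose by 1.30 ± 0.05 in white leaves (edgeR adjusted p = 9.7e-22). ABA2, another gene of that synthesis, went the other way, with means of 15.5 CPM in wild type and 7.62 CPM in white leaves.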

How the data were processed

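RNA-seq libraries of polyadenylated leaf RNA were made with a strand-specific kit and read on a DNBSEQ platform, per the labels' protocols. The labels' design text names SOAPnuke 1.5.2 for read filtering and HISAT2 2.0.4 for alignment to TAIR10. Bowtie2, RSEM and DESeq2 appear without a role in the submitters' processing notes. The authors deposited 3 tables, each with 1 leaf class and wild type. Their headers name read counts and TPM by library, mean TPM by group and, from the authors, a log2 fold change, a p-value and a q-value, of which the last 3 are not reported. The deposited counts are expected counts (92.8% whole numbers). The 18 columns of TPM by library were not used, and the mean TPM columns are printed as the authors' means. The union held 25169 genes, all matched to TAIR10.1, and 9750 missing values were set to 0. Columns carry the letters A to C and the labels carry numbers, so samples were not paired.

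Counts were rounded and analysed with edgeR 4.0.16 in R 4.3.3 (TMM, low-count filter, quasi-likelihood test, 12 libraries in 1 fit with 8 residual degrees of freedom, Benjamini-Hochberg over 19424 genes). TMM factors were 0.903 to 0.929 for wild type and green and 1.08 to 1.12 for the pale leaf classes. Libraries of the same group lay 1.55 to 3.75 chi-square units per gene apart, so none was counted as a duplicate. The fit was tested on simulated data in which few genes changed, in green leaves only. That test cannot check the scaling where most genes are called. Alternatives were RLE and upper-quartile scaling, no low-count filter, DESeq2 1.42.0, only the 2 groups compared, leaving out each of 12 libraries and, added after the data were seen, ratios of the authors' mean TPM. Intervals and floors cover counting error only. Sequences and motifs were read from TAIR10.1 with Biopython 1.88.

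The members and gene lists were chosen with earlier results of these data known. All members are named. Other genes are named from lists picked by function, by the smallest adjusted p in each direction (up to 3), any gene in the ER body and glucosinolate-breakdown lists, or by likeness to a member.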

Additional observations from a re-analysis of the deposited data

Results flagged for a closer look

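Members that differed between leaf classes of the same mutant by at least 1 on the log2 scale, in a test of the difference itself, deserve a second look, since genotype is shared there. PYK10 was lower in white than in green leaves by −1.68 and than in green-white leaves by −1.72. Its choice used its levels in these libraries, so its tests are not independent of that choice. NAI1 was lower in white than in green leaves by −1.59 and than in green-white leaves by −2.22. TGG2 was higher than in green leaves by 1.54 in green-white and by 1.05 in white leaves. ESM1 gave −1.15 in green-white and −1.40 in white leaves against green leaves. All 3 libraries of each class lay on their side of the difference in these 8 cases. The choice of cases by this size makes that nearly certain, so it adds nothing to the tests. PYK10 and NAI1 were thus lowest in white leaves, TGG2 in green leaves, and ESM1 low in both pale classes.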

How the results depend on the processing

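No count of called members moved by over 1.5 times under any alternative run. With 1 library left out, counts were 6 to 7 for green, 7 for green-white and 7 for white leaves against wild type, 4 to 5 for green-white over green, 6 for white over green and 6 to 7 for white over green-white. Ratios of the authors' mean TPM changed the sign of 3 called differences, TGG1 in green-white (0.108) and white (0.0709) over green leaves and TGG2 in green-white leaves over wild type (0.0420), and of PEN2 in white over green (0.384) and white over green-white leaves (0.0339), which were not called in the main edgeR fit. The median of all genes moved with them, and the cause was not tested. Upper-quartile scaling moved the median of all genes to −0.11 in green-white leaves against wild type. BGLU18 in green-white over green leaves (0.07 ± 0.03, edgeR adjusted p = 0.055) passed the test with RLE scaling (0.016) and DESeq2 (0.028). PEN2 in white over green-white leaves was not called in the main edgeR fit (adjusted p = 0.067) but passed under many alternatives. These were RLE scaling (0.029), DESeq2 (0.020), upper-quartile scaling (0.042), no low-count filter (0.047) and only the 2 groups compared (0.0065). It also passed when any 1 wild-type or green library was left out (0.013 to 0.024). In white over green leaves PEN2 passed with upper-quartile scaling (0.025). Among the 5 genes most like PYK10, 3 remained with a pseudocount of 2 and 0 with Spearman's rho. The nearest genes named for TGG2 and ESM1 stayed nearest with a pseudocount of 2. By Spearman's rho none of them was among the 3 nearest. No paired analysis was possible because the columns carry letters and the labels numbers. In white leaves PYK10, NAI1 and JAL22 are limited by counts of 23 or fewer per library.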
